A study of Mus musculus with 8 samples.

Results

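The genes described here are 41 macrophage and myeloid genes of the mouse, named as markers of these cells with no threshold on a measured value, though with earlier results of these data known, out of 38370 genes for which FPKM values could be summed. They were measured in whole inguinal white adipose tissue (ING WAT), the fat pad under the skin of the groin, of C57BL/6j mice. Poly(A)+ RNA was sequenced from 4 mice on postnatal day 21 (PN21, the day of full weaning: m1, m49, m138 and m145) and from 4 other mice on postnatal day 98 (PN98, young adults: m35, m106, m114 and m125). None carried a transgene or a drug treatment, all had been fasted for part of the night, and they came from litters raised on the AIN93G synthetic diet. From PN42 the mice of the study ate either AIN93M or a western style diet, and which of these the sequenced PN98 mice ate is not given in the sources used here.

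Macrophages of fat tissue stem from cells seeded before birth and from blood monocytes. They depend on the growth factor CSF1 and its receptor CSF1R and on the transcription factor PU.1, encoded by *Spi1*. Resident cells carry scavenging receptors such as CD206 (*Mrc1*), CD163, the folate receptor FOLR2 and the phosphatidylserine receptor TIM4 (*Timd4*), clear dead cells and excess lipid, and make most of the complement component C1q. Monocytes and inflammatory macrophages carry CCR2, Ly6C and CD11c (*Itgax*) and make TNF, interleukin 1 and nitric oxide. The alarmins S100A8 and S100A9, which form calprotectin, are stored above all in neutrophils and are also made by monocytes.

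Of the 41 members, 39 had a mean of at least 1 FPKM over the 8 mice and entered the comparison of the ages by limma on log2(FPKM + 1), as part of 16101 genes. *Arg1* and *Il1b* fell short of that mean. Only *S100a8* and *S100a9* passed an adjusted p of 0.05 (Benjamini-Hochberg over all genes tested), both lower at PN98, and no member was called higher. Among all genes tested 2.94% were called lower and 2.36% higher, or 473 and 380 genes. With the mice scaled by the median of ratios this split became 463 lower and 761 higher. The medians of the log2 fold change (log2FC, PN98 minus PN21, on the log2(FPKM + 1) scale throughout) were −0.26 over the 39 members and −0.21 over all genes tested. At an unadjusted p under 0.05 there were 8 members with lower levels at PN98 against a background of 19.0%, and 2 with higher levels against 8.19%. The ages did not overlap for 5 of the 39 members tested (*S100a9*, *S100a8*, *Cx3cr1*, *Timd4* and *Marco*), each lower in every PN98 mouse. Over all genes tested 16.1% did not overlap, 1611 of them lower and 975 higher at PN98. These shares lay near the background, so the counts are no result about the members as a group, and single genes are described by their own values.

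**Figure D1:**
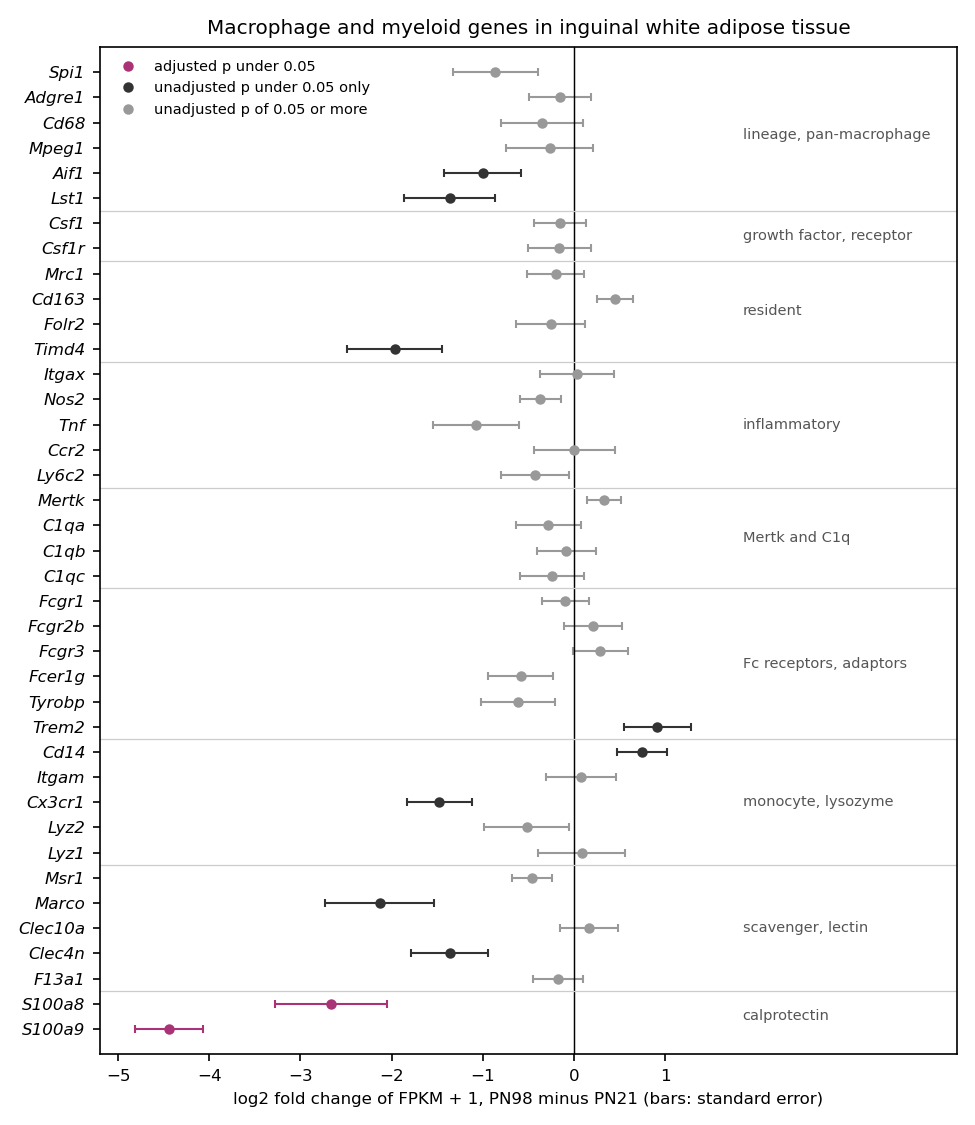
Log2FC of FPKM + 1 (PN98 minus PN21, x axis) with its standard error for the 39 members tested, grouped by role from top to bottom, 4 mice per age. *S100a9* (−4.44) and *S100a8* (−2.67) are the only members with an adjusted p under 0.05. To the right of 0 lie 11 members, among them *Cd163*, *Mertk*, *Trem2* and *Cd14*, none of them called.

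Facts of the libraries bear on these values. Without read counts the depth of a library is unknown, and no counting error can be given. FPKM summed over nuclear genes was 919499 to 1205110 at PN21 and 812913 to 989368 at PN98. The Y-linked genes *Ddx3y*, *Eif2s3y*, *Uty* and *Kdm5d* were present in all 8 mice, between 2.41 and 84.5 FPKM. *Xist* was 0.247 to 0.832 FPKM at PN21 and at most 0.00704 FPKM at PN98. The adipocyte gene *Adipoq* was 817 to 3653 FPKM, as a check of the tissue label. The PN98 mice were uneven in the RNA of lymphocyte markers. The summed FPKM of 14 such markers ran from 485 to 1187 FPKM at PN21 and 21.1 to 1075 FPKM at PN98. The PN98 values in m35, m106, m114 and m125 were 1075, 205, 63.5 and 21.1 FPKM, so that m35 lay within the PN21 range. All 14 were detected in every mouse. The sum of 10 skeletal muscle markers was 88.2 to 886 FPKM at PN21 and 642 to 4088 FPKM at PN98. In whole tissue, fewer cells of a type and less RNA per cell cannot be told apart. The part of lymphoid or muscle tissue in the differences of the members was not tested, and calls that changed when m35 was left out are given with and without it. Without m35, 17.9% of all genes were called lower and 4.25% higher, against 2.94% and 2.36% with all mice.

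The calprotectin genes were the only members called. *S100a9* and *S100a8* are neighbours on chromosome 3 that are read from opposite strands (GRCm38: *S100a9*, chr3:90692632-90695721, minus strand; *S100a8*, chr3:90668978-90670035, plus strand). Of the 41 members, 29 had a promoter window in the RefSeq table for GRCm38.p6, here the 250 bases before the start of the gene. These windows were searched on both strands for GAGGAAGT, a form of the element bound by PU.1, and for TTGCNNAA, a form of the element bound by the C/EBP factors of myeloid cells, which do not overlap in the stretches shown. The first was found in 2.44% of 32851 windows and in those of 3 members (*Ly6c2*, *C1qc* and *S100a8*), the second in 9.56% of the windows and in those of 4 members (*Cd68*, *Fcgr3*, *Lyz1* and *S100a9*). A member was counted if any of its windows matched, so the counts of members are not comparable with the shares of single windows. The stretches before this pair of genes are shown because they were the only members called with all mice. Each is printed 5′ to 3′ on the strand of its gene, with the match in capitals (C/EBP letters, 236 bases before the start, in *S100a9*, and PU.1 letters on the opposite strand, 172 bases before the RefSeq start, in *S100a8*). That of *S100a8* ends before the earlier start that GENCODE gives.
*S100a9* (chr3:90695722-90695971, minus strand): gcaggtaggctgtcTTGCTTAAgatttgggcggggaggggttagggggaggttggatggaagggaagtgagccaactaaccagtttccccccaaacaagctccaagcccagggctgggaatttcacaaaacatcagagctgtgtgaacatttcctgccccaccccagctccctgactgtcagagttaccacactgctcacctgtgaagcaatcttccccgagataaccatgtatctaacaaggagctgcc
*S100a8* (chr3:90668821-90668977, plus strand): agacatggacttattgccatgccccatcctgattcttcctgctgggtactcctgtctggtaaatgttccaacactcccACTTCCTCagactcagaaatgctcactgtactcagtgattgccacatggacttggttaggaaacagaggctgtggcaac

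*S100a9* was 87.4, 46.5, 105 and 93.1 FPKM in m1, m49, m138 and m145 (PN21) and 6.15, 2.23, 1.88 and 1.82 FPKM in m35, m106, m114 and m125 (PN98), the order of mice used from here on. Every PN21 mouse was above every PN98 mouse by a wide margin. The means were 83.0 ± 25.4 FPKM at PN21 and 3.02 ± 2.095 FPKM at PN98 (SD, n = 4 each), 27.5-fold lower at PN98, and *S100a9* fell by 4.44 on the log2 scale (standard error 0.37, adjusted p = 0.00145). *S100a8* was 48.4, 48.6, 78.8 and 76.6 FPKM at PN21 and 25.4, 7.68, 13.1 and 1.88 FPKM at PN98. It did not overlap between the ages either, but the PN98 mice spread more widely, with m35 highest and m125 lowest. Its means were 63.1 ± 16.9 FPKM at PN21 and 12.03 ± 10.04 FPKM at PN98 (SD, n = 4 each), and it fell by 2.67 on the log2 scale (standard error 0.61, adjusted p = 0.0465). *S100a9* stayed called with each mouse left out in turn (−4.76 to −4.31). *S100a8* was called without m35, −3.14 (adjusted p = 0.0104), and without m125, −2.08 (adjusted p = 0.0391), but without any one of the other mice its adjusted p ran from 0.0932 to 0.128. Of the transcripts of members, 57 of 39 genes were tested on their own, and one transcript of *S100a9* was called, with a log2FC of −4.92 and an adjusted p of 0.00783, against a background of 1.36% of 23160 transcripts.

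Markers of neutrophils moved with the calprotectin genes. The list held 11 genes, of which 7 were tested with all mice, all with lower estimates at PN98. Of these, 5 were called lower, against 2.94% of all genes. Without m35, 7 genes of the list were called lower, against 17.9% of all genes. Without any one of the other mice 2 to 5 were, against 0.681% to 1.62% of all genes, with *Ngp* and *Camp* in each of these fits. *Mpo*, which was not tested with all mice, is counted among those called without m35, m106, m114 or m125. *Elane* was called in none of these fits. *Ngp*, *Camp* and *Ltf*, proteins of neutrophil granules, fell by 2.97, 3.10 and 1.63 on the log2 scale, *Retnlg* fell by 2.33 and the receptor for the neutrophil growth factor, *Csf3r*, fell by 0.97 (adjusted p = 0.000904, 0.00212, 0.0132, 0.0169 and 0.0450). The list summed to 23.9 to 46.0 FPKM at PN21 and 2.28 to 7.02 FPKM at PN98, without overlap, and *Ly6g* and *Stfa1* were at 0 in all 4 PN98 mice. *Elane*, another granule gene, was 1.13, 1.90, 1.91 and 2.69 FPKM at PN21 and 1.93, 1.33, 1.02 and 1.32 FPKM at PN98. In m35 the lymphocyte markers were at PN21 levels and the neutrophil list was 7.02 FPKM, below the lowest PN21 mouse (23.9). Over m35, m106, m114 and m125 the neutrophil list was 7.02, 4.68, 2.78 and 2.28 FPKM. This was the order of mice of the lymphocyte markers and of *S100a9*, but not of *S100a8*. Within the neutrophil list, *Cxcr2* was 2.11 FPKM in m35, inside its PN21 range of 0.913 to 3.05 FPKM, and *Elane* in m35 was inside its PN21 range too. The part of neutrophils in the levels of *S100a8* and *S100a9* was not tested.

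**Figure D2:**
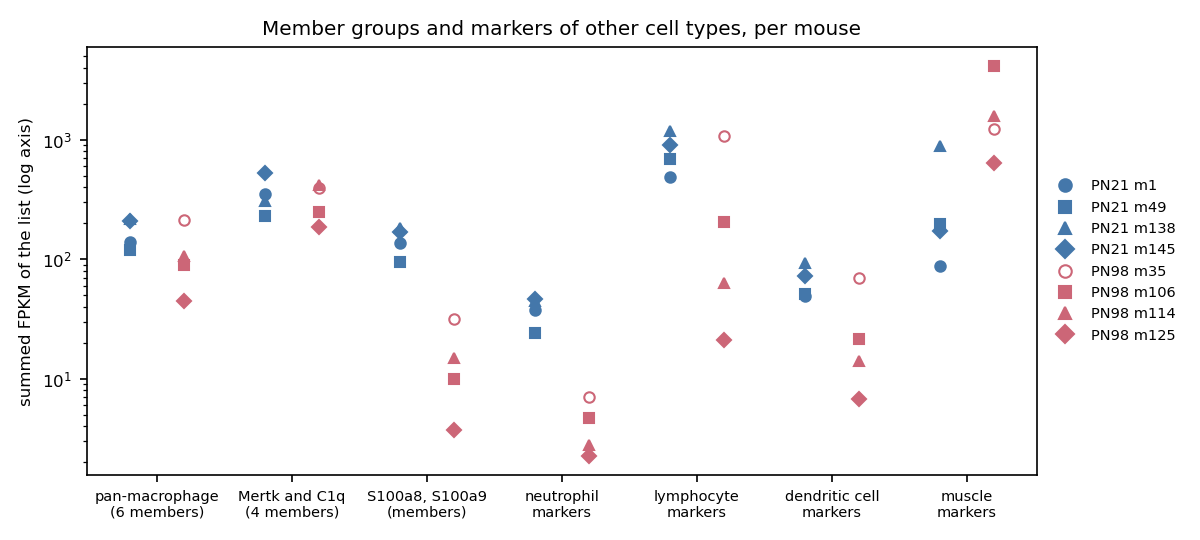
Summed FPKM (log axis) per mouse of 3 groups of members and of markers of 4 other cell types; blue marks are PN21 mice, red marks PN98 mice, and the open circle is m35. The calprotectin genes and the neutrophil markers do not overlap between the ages. For lymphocyte and dendritic cell markers m35 lies within the range of the PN21 mice.

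None of the markers that all macrophages share was called. *Adgre1*, which encodes the surface protein F4/80, was 8.69, 6.59, 8.47 and 8.40 FPKM at PN21 and 10.4, 7.19, 10.4 and 2.99 FPKM at PN98, with a log2FC of −0.15 ± 0.34 (SE, adjusted p = 0.785). *Cd68*, a protein of macrophage lysosomes, was 36.0, 23.4, 40.1 and 30.5 FPKM at PN21 and 49.6, 23.4, 33.1 and 9.45 FPKM at PN98, with a log2FC of −0.35 ± 0.45 (SE, adjusted p = 0.622). For both genes m35 was above the highest PN21 mouse and m125 was the lowest of all 8 mice. The pore-forming protein gene *Mpeg1* was 16.2 to 34.98 FPKM at PN21 and 6.91 to 38.9 FPKM at PN98 and had a log2FC of −0.27 ± 0.48 (SE, adjusted p = 0.733). *Spi1* had means of 27.9 ± 8.04 FPKM at PN21 and 17.3 ± 12.8 FPKM at PN98 (SD, n = 4 each), with m35 at 35.7 FPKM and the other PN98 mice between 6.10 and 14.2 FPKM. Its log2FC was −0.86 ± 0.47 (SE, adjusted p = 0.255) with all mice. It was −1.28 (adjusted p = 0.0354) without m35, where 17.9% of all genes were called lower, and −0.49 (adjusted p = 0.469) without m125.

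*Aif1*, a calcium-binding protein of macrophages also known as IBA1, and *Lst1*, a small membrane protein of leukocytes, lie close to *Tnf* in the MHC class III region of chromosome 17. *Aif1* was 33.4, 36.5, 64.5 and 73.4 FPKM at PN21 and 51.5, 17.1, 24.3 and 15.3 FPKM at PN98, with a log2FC of −1.0004 ± 0.42 (SE, adjusted p = 0.173). *Lst1* was 19.3, 17.9, 29.6 and 47.5 FPKM at PN21 and 24.7, 9.27, 8.40 and 4.199 FPKM at PN98, with a log2FC of −1.37 ± 0.50 (SE, adjusted p = 0.139). In both genes the other 3 PN98 mice lay below every PN21 mouse, and only m35 lay within the PN21 range. Without m35 the log2FC values were −1.36 (adjusted p = 0.0281) for *Aif1* and −1.79 (adjusted p = 0.0215) for *Lst1*. Without m125 they were −0.80 (adjusted p = 0.322) and −1.02 (adjusted p = 0.251).

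Neither the growth factor of the lineage nor its receptor was called. *Csf1* was 23.8, 10.8, 17.8 and 15.5 FPKM at PN21 and 19.3, 13.4, 17.98 and 9.64 FPKM at PN98, and its log2FC was −0.15 ± 0.29 (SE, adjusted p = 0.750). *Csf1r* was 32.2, 22.1, 35.02 and 31.8 FPKM at PN21 and 43.9, 25.9, 32.7 and 13.2 FPKM at PN98, and its log2FC was −0.16 ± 0.35 (SE, adjusted p = 0.783). The ranges of both genes overlapped between the ages. The ratio of *Csf1r* to *Csf1* within a mouse was 1.86 ± 0.338 at PN21 and 1.847 ± 0.372 at PN98 (SD, n = 4 each). Of 13 other ligands that act on myeloid cells, such as *Il34*, *Ccl2* and *Gas6*, 9 were tested and none was called (2 estimates higher, 7 lower). Without m35 4 of them were called lower (*Ccl12*, *Cx3cl1*, *Flt3l* and *Il33*), against 17.9% of all genes. The median log2FC of the ligands tested was then −1.16 in place of −0.90.

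Of the 4 resident members, 1 had levels that did not overlap between the ages. *Timd4* was 15.8, 19.1, 32.0 and 23.6 FPKM at PN21 and 15.1, 4.81, 3.96 and 1.52 FPKM at PN98, where m35 was just below the lowest PN21 mouse and the other mice were far below it. Its log2FC was −1.97 ± 0.52 (SE, adjusted p = 0.0669) with all mice. It was −2.46 (adjusted p = 0.00751) without m35 and −1.56 (adjusted p = 0.105) without m125. *Mrc1* was 22.8, 12.9, 18.1 and 19.4 FPKM at PN21 and 17.0, 18.6, 21.8 and 8.13 FPKM at PN98, with a log2FC of −0.20 ± 0.31 (SE, adjusted p = 0.689). *Folr2* was 44.8, 24.3, 33.6 and 55.9 FPKM at PN21 and 43.7, 29.4, 46.4 and 16.4 FPKM at PN98, with a log2FC of −0.26 ± 0.38 (SE, adjusted p = 0.673). For *Mrc1* and *Folr2*, m125 was the lowest of the 8 mice and the other PN98 mice lay among the PN21 mice. *Cd163*, the receptor for haemoglobin bound to haptoglobin, was 8.34, 5.58, 5.61 and 7.96 FPKM at PN21 and 10.5, 9.23, 11.7 and 7.39 FPKM at PN98. Its 3 highest mice were all at PN98, and its log2FC of 0.45 ± 0.20 (SE, adjusted p = 0.189) did not pass the test.

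The inflammatory members overlapped between the ages in every case. *Itgax* was 1.92, 1.48, 3.40 and 1.99 FPKM at PN21 and 6.06, 1.32, 2.42 and 0.856 FPKM at PN98, with a log2FC of 0.032 ± 0.41 (SE, adjusted p = 0.967). The receptor for monocyte-attracting chemokines, *Ccr2*, was 7.25, 6.02, 9.86 and 7.45 FPKM at PN21 and 14.8, 5.70, 12.7 and 2.72 FPKM at PN98, with a log2FC of 0.0031 ± 0.44 (SE, adjusted p = 0.997). Both ran wider at PN98 than at PN21, with the highest level in m35 and the lowest in m125. *Ly6c2*, a surface protein of inflammatory monocytes, was 38.0, 40.5, 63.6 and 59.0 FPKM at PN21 and 73.4, 36.8, 30.5 and 20.8 FPKM at PN98, with a log2FC of −0.42 ± 0.37 (SE, adjusted p = 0.468). In GENCODE transcripts, 32.6% of the 50-base windows of *Ly6c2* also occur in *Ly6c1*, a gene of endothelial cells, so that reads of the pair may have been split. *Nos2*, the inducible nitric oxide synthase, was 2.97, 1.69, 2.32 and 1.96 FPKM at PN21 and 2.36, 0.957, 1.87 and 0.995 FPKM at PN98, with a log2FC of −0.37 ± 0.23 (SE, adjusted p = 0.314).

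*Tnf* and *Il1b*, the cytokines of the list, were low. *Tnf* was 1.74, 3.14, 4.08 and 3.67 FPKM at PN21 and 4.18, 0.443, 0.727 and 0.0706 FPKM at PN98, with a log2FC of −1.07 ± 0.47 (SE, adjusted p = 0.186). Mouse m35 held the highest level of all 8 mice and the other PN98 mice were below every PN21 mouse. The log2FC was −1.55 (adjusted p = 0.0122) without m35 and −0.79 (adjusted p = 0.345) without m125. *Il1b* was 1.27, 0.788, 2.25 and 0.724 FPKM at PN21 and 0.890, 0.353, 0.218 and 0.0257 FPKM at PN98, and a two-sided exact permutation test of the means over the 70 splits of the mice gave p = 0.0857, the smallest possible being 0.0286. The arginase gene *Arg1*, a marker of alternative activation, was 0.952, 1.17, 0.389 and 0.595 FPKM at PN21 and 0.403, 0.125, 0.0607 and 0.0233 FPKM at PN98 (exact permutation test, p = 0.0571).

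The resident and inflammatory members were set side by side as the mean of log2(FPKM + 1) over each list, as a description with no test. The resident mean was 4.35, 3.88, 4.28 and 4.49 at PN21 and 4.30, 3.78, 4.01 and 2.93 at PN98. The inflammatory mean was 2.42, 2.302, 2.89 and 2.52 at PN21 and 3.01, 1.855, 2.19 and 1.39 at PN98. PN98 minus PN21 was −0.49 for the resident and −0.42 for the inflammatory mean, and both means overlapped between the ages, with m125 the lowest mouse in each. Without m125 these differences were −0.22 and −0.18, and without m35 −0.68 and −0.72. The resident mean without *Timd4* differed by −0.0033 between the ages, or by −0.082 without m35 and 0.23 without m125. The resident minus the inflammatory mean was 1.93, 1.57, 1.39 and 1.97 at PN21 and 1.29, 1.92, 1.83 and 1.53 at PN98, a difference of −0.07. Its sign turned with single mice, since it was 0.047 without m35 and 0.012 without m145. With a pseudocount of 0.1 in place of 1, which gives more weight to the low inflammatory members, this difference was 0.26.

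None of the genes for the clearance of dying cells was called. C1q, the first component of the classical complement pathway, is built from equal numbers of the A, B and C chains. *C1qa* was 132, 87.3, 113 and 217 FPKM at PN21 and 143, 86.6, 153 and 67.1 FPKM at PN98. *C1qb* was 118, 73.6, 107 and 164 FPKM at PN21 and 135, 93.6, 146 and 64.7 FPKM at PN98. *C1qc* was 97.7, 61.9, 82.0 and 137.8 FPKM at PN21 and 108, 61.1, 111 and 46.8 FPKM at PN98. The 3 genes had the same order of mice in each age, m145 above m1, m138 and m49, and m114 above m35, m106 and m125. Their log2FC values were −0.29 ± 0.36 (SE, adjusted p = 0.613), −0.084 ± 0.33 (SE, adjusted p = 0.885) and −0.25 ± 0.35 (SE, adjusted p = 0.664). The ratio of *C1qa* to *C1qb* was 1.06 to 1.32 at PN21 and 0.925 to 1.06 at PN98, lower in each PN98 mouse than in any PN21 mouse, and that of *C1qc* to *C1qb* was 0.769 to 0.843 at PN21 and 0.652 to 0.796 at PN98, with overlap. *Mertk*, a receptor kinase through which macrophages take up dying cells, was 3.92 to 6.47 FPKM at PN21 and 5.62 to 7.67 FPKM at PN98, with a log2FC of 0.33 ± 0.18 (SE, adjusted p = 0.272).

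Fc receptors bind antibodies. The activating ones signal through the adaptor FCER1G, and TYROBP is the adaptor of TREM2 and related receptors. *Fcgr1*, *Fcgr2b* and *Fcgr3* had log2FC values of −0.10, 0.21 and 0.29 (adjusted p = 0.827, 0.687 and 0.546). *Fcgr1*, the high-affinity receptor, was 1.24 to 2.57 FPKM at PN21 and 0.794 to 2.66 FPKM at PN98. *Fcgr2b*, the inhibitory receptor, was 16.1 to 24.3 FPKM at PN21 and 11.4 to 34.0 FPKM at PN98, and *Fcgr3*, an activating receptor, was 15.1 to 24.2 FPKM at PN21 and 13.2 to 33.3 FPKM at PN98. *Fcgr2b* and *Fcgr3* share 12.8% of the 50-base windows of *Fcgr3*, so reads of the pair may have been split. The adaptor gene *Fcer1g* was 34.2 to 53.8 FPKM at PN21 and 14.7 to 46.1 FPKM at PN98 and had a log2FC of −0.59 ± 0.35 (SE, adjusted p = 0.303). *Tyrobp* was 99.4, 80.3, 119.7 and 157 FPKM at PN21 and 135, 56.9, 94.8 and 36.8 FPKM at PN98, with a log2FC of −0.61 ± 0.40 (SE, adjusted p = 0.344).

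*Trem2*, a lipid-sensing receptor that signals through TYROBP, was 1.97, 0.839, 1.96 and 2.49 FPKM at PN21 and 7.31, 2.67, 6.55 and 2.099 FPKM at PN98. The mice m35 and m114 were well above every PN21 mouse, whereas m125 lay within the PN21 range. Its log2FC of 0.91 ± 0.37 (SE, adjusted p = 0.164) had an unadjusted p of 0.0382 and was not called. The ratio of *Trem2* to *Tyrobp* within a mouse was 0.0199, 0.0104, 0.0164 and 0.0159 at PN21 and 0.0542, 0.0470, 0.0691 and 0.0570 at PN98. In m125, the PN98 mouse with the lowest level in 38 members, the ratio was within the range of the other PN98 mice. The means were 0.0156 ± 0.00389 at PN21 and 0.0568 ± 0.00921 at PN98 (SD, n = 4 each).

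This was 1 of 8 ratios between members that were chosen after the values were seen, so they are given as a description with no test. The ratio of *Cd163* to *Mrc1* was 0.365, 0.433, 0.310 and 0.410 at PN21 and 0.618, 0.495, 0.535 and 0.909 at PN98, without overlap, and that of *Timd4* to *Folr2* was 0.354 to 0.953 at PN21 and 0.0854 to 0.346 at PN98. Within the resident list *Cd163* was higher and *Timd4* lower at PN98 relative to another member of the same list. The ratio of *S100a9* to *S100a8* was 1.80, 0.957, 1.33 and 1.22 at PN21 and 0.242, 0.291, 0.143 and 0.968 at PN98. It overlapped between the ages, with m125 just above m49 and the other PN98 mice far below every PN21 mouse. *Lyz2*, the lysozyme of macrophages and monocytes, was the most abundant member, with 287, 372, 551 and 543 FPKM at PN21 and 669, 254, 332 and 135 FPKM at PN98, and *Lyz1*, its neighbour and near copy, was 40.2, 54.1, 71.4 and 73.0 FPKM at PN21 and 150.1, 49.1, 69.3 and 27.8 FPKM at PN98. Neither was called, with log2FC values of −0.52 ± 0.47 (SE, adjusted p = 0.479) and 0.082 ± 0.47 (SE, adjusted p = 0.927). The ratio of *Lyz1* to *Lyz2* was 0.140, 0.145, 0.130 and 0.135 at PN21 and 0.224, 0.193, 0.209 and 0.206 at PN98, with means of 0.137 ± 0.00681 at PN21 and 0.208 ± 0.0128 at PN98 (SD, n = 4 each). It was higher in each PN98 mouse than in any PN21 mouse although the levels ran from 135 to 669 FPKM at PN98. In GENCODE transcripts, 16.1% of the 50-base windows of *Lyz1* also occur in *Lyz2*, with a longest shared run of 118 bases, so that the split of reads between the pair is uncertain.

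**Figure D3:**
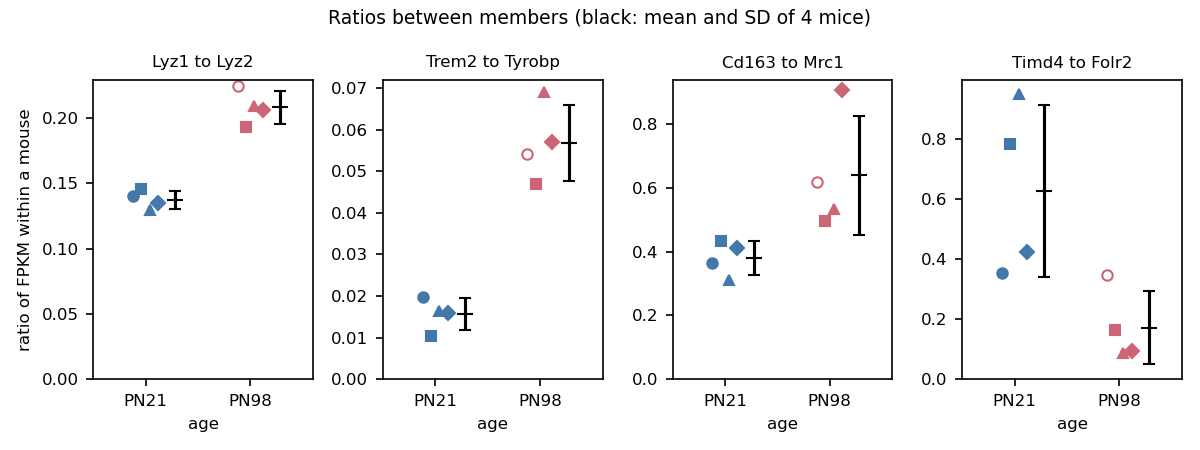
Ratio of FPKM between pairs of members within each mouse (linear axis from 0), with the mean and SD of the 4 mice per age in black; the open circle is m35. The ratios of *Lyz1* to *Lyz2*, *Trem2* to *Tyrobp* and *Cd163* to *Mrc1* are higher in every PN98 mouse than in any PN21 mouse, and that of *Timd4* to *Folr2* is lower.

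Of the monocyte and integrin genes, *Cx3cr1* had the lowest p. This receptor for fractalkine marks patrolling monocytes and some tissue macrophages. It was 2.68, 3.15, 4.56 and 4.57 FPKM at PN21 and 2.43, 0.480, 0.471 and 0.0501 FPKM at PN98, and m35 was just below the lowest PN21 mouse. Its log2FC was −1.48 ± 0.36 (SE, adjusted p = 0.0535) with all mice and −1.82 (adjusted p = 0.00525) without m35. *Cx3cr1* was not called without any one of the other mice. *Cd14*, the co-receptor for bacterial lipopolysaccharide, was 5.82, 3.74, 3.47 and 7.82 FPKM at PN21 and 12.4, 7.01, 10.4 and 7.18 FPKM at PN98. Its log2FC of 0.75 ± 0.28 (SE, adjusted p = 0.143) had an unadjusted p of 0.0272, and the PN21 mouse m145 lay above 2 of the PN98 mice. *Itgam*, which encodes CD11b, was 4.24 to 8.53 FPKM at PN21 and 2.77 to 11.8 FPKM at PN98 and had a log2FC of 0.074 ± 0.38 (SE, adjusted p = 0.917).

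None of the scavenger receptors and lectins was called with all mice. *Marco*, a scavenger receptor for bacteria that macrophages of lymph nodes and spleen also carry, was 22.3, 17.6, 36.5 and 39.6 FPKM at PN21 and 15.8, 7.06, 5.45 and 1.05 FPKM at PN98. No PN98 mouse reached the lowest PN21 mouse, m125 was at 1.05 FPKM, and the log2FC was −2.13 ± 0.60 (SE, adjusted p = 0.0803). *Clec4n*, which encodes dectin-2, was 6.09, 6.71, 12.005 and 8.71 FPKM at PN21 and 7.09, 2.49, 1.90 and 0.919 FPKM at PN98, with m35 within the PN21 range and a log2FC of −1.36 ± 0.43 (SE, adjusted p = 0.0994). Without m35 the log2FC values were −2.59 (adjusted p = 0.0165) for *Marco* and −1.76 (adjusted p = 0.0103) for *Clec4n*. Neither was called without any one of the other mice. The scavenger receptor gene *Msr1* was 2.87 to 4.38 FPKM at PN21 and 1.52 to 3.14 FPKM at PN98 and had a log2FC of −0.46 ± 0.22 (SE, adjusted p = 0.214). The galactose lectin gene *Clec10a* and the coagulation factor gene *F13a1*, both of resident macrophages, had log2FC values of 0.16 and −0.18 (adjusted p = 0.758 and 0.683). *Clec10a* was 57.6 to 110.2 FPKM at PN21 and 48.5 to 114.2 FPKM at PN98, and *F13a1* was 20.6 to 33.5 FPKM at PN21 and 14.7 to 33.9 FPKM at PN98. *Clec10a* shares 10.6% of its 50-base windows with *Mgl2*.

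The spread of the members was not even over the mice. Mouse m35 had the highest level of the PN98 mice in 31 of the 41 members and m125 the lowest in 38. At PN21, m49 was the lowest in 27, and m138 and m145 were each the highest in 17. Leaving out m35 raised the members called lower from 2 to 10 (*Aif1*, *Clec4n*, *Cx3cr1*, *Lst1*, *Marco*, *S100a8*, *S100a9*, *Spi1*, *Timd4* and *Tnf*), and at the same time the share of all genes called lower to 17.9%. None was called higher in that fit, where 4.25% of all genes were. With array weights 10 members were called lower against 21.7% of all genes, with the median of ratios 4 against 2.88%, and with scaling to the sum of nuclear genes, with a pseudocount of 0.1 and without the filter 1 against 1.67%, 2.40% and 2.06%. Leaving out m125 gave a median log2FC of 0.03 over the members, against −0.15 over all genes, and the calls of *S100a8* and *S100a9*.

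**Figure D4:**
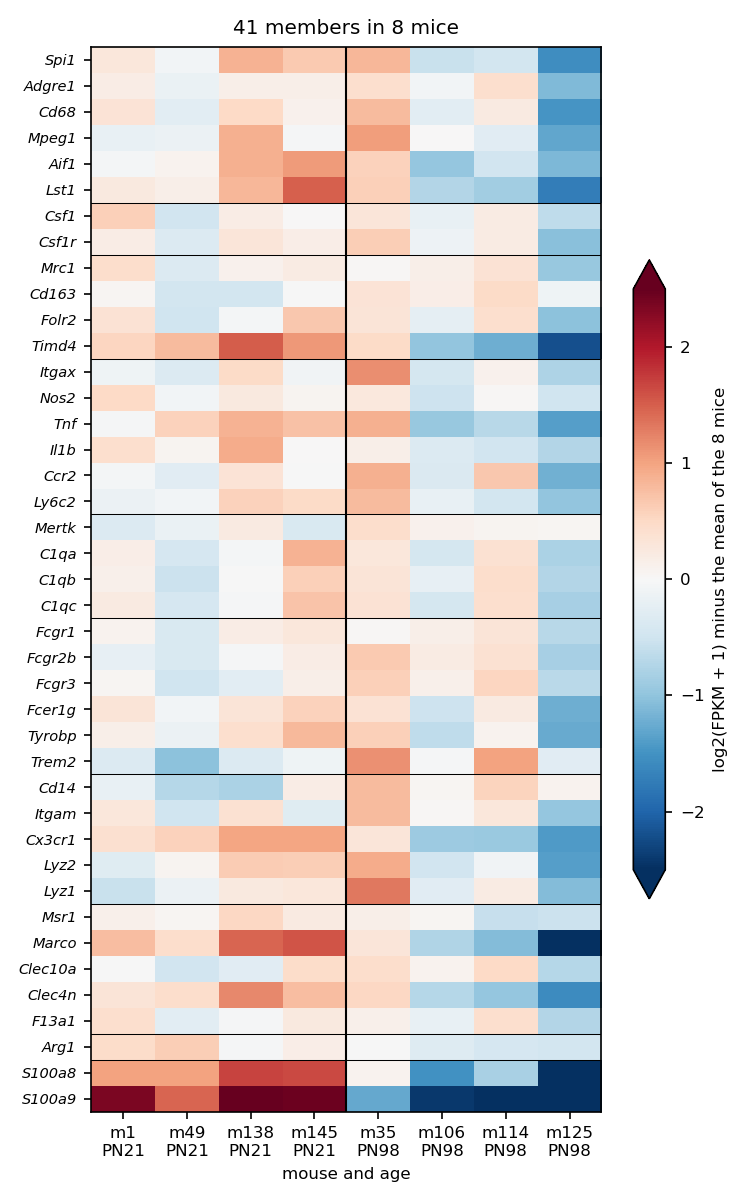
Log2(FPKM + 1) minus the mean of the 8 mice for all 41 members (rows, grouped by role) in the 8 mice (columns), with the colour scale ending at −2.5 and 2.5. The columns of m35 and m125 differ within PN98, m35 being highest of its age in 31 members and m125 lowest in 38, and the 2 lowest rows, *S100a8* and *S100a9*, are higher in every PN21 mouse.

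To set aside differences in the amount of macrophage RNA, each mouse was also scaled to the geometric mean of *Adgre1*, *Csf1r* and *Cd68*, a choice made after the values were seen. Of the 39 members, 19 then had higher and 20 lower estimates at PN98. The members called lower were 4, *S100a9*, *S100a8*, *Marco* and *Timd4*, while 1.23% of all genes were called lower, against 2.94% without this scaling. Because the scale is made from members, the share over all genes is no like background for them here. The log2FC was −1.99 (adjusted p = 0.0396) for *Marco* and −1.80 (adjusted p = 0.0408) for *Timd4*. No member was called higher under this scaling, against 0.621% of all genes. The scalings moved the median over all genes from −0.21 to −0.02 with the median of ratios, to 0.01 with the sum over nuclear genes and to 0.00 with the macrophage genes. Each scaling multiplies all genes of a mouse by one factor, so small negative differences, such as those of *Mrc1*, *Csf1r*, *Adgre1* and *C1qb*, became positive with this shift of all genes. *Adgre1* and *Csf1r* are also part of the macrophage scale itself, so their values under it are set in part by the scale.

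**Figure D5:**
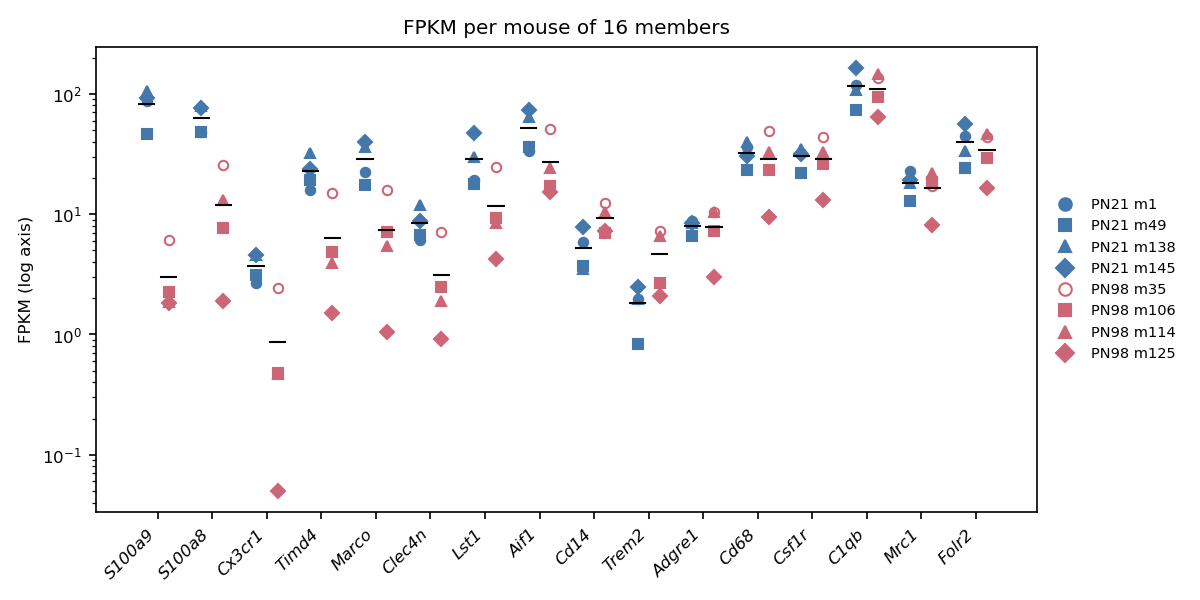
FPKM (log axis) per mouse of 16 members, with the mean of each age as a black bar; blue marks are PN21 mice, red marks PN98 mice, and the open circle is m35. *S100a9*, *S100a8*, *Cx3cr1*, *Timd4* and *Marco* do not overlap between the ages, and the markers from *Adgre1* to *Folr2* do.

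Further myeloid genes were read as lists. Of 14 genes of lipid-associated macrophages, the cells that gather around dying adipocytes, 12 were tested. At PN98, 9 had higher estimates and 3 were called higher, against 2.36% of all genes. Without m35, 4 were called higher, against 4.25% of all genes, and *Cd9* was called lower, against 17.9%. Without any one of the other mice 1 or 2 were called higher, against 0.619% to 1.95% of all genes, and *Gpnmb* was called in each of these fits. The lower estimates were those of *Cd9* (−0.65), *Fabp5* (−0.52) and *Cd63* (−0.12), none of them called with all mice. *Gpnmb*, a lysosomal glycoprotein, was 0.656, 0.657, 0.819 and 1.01 FPKM at PN21 and 13.3, 8.76, 6.86 and 4.19 FPKM at PN98 and rose by 2.29 on the log2 scale (adjusted p = 0.00707). *Mmp12*, the macrophage elastase, was 0.515, 0.936, 0.724 and 0.551 FPKM at PN21 and 18.8, 3.27, 11.7 and 4.94 FPKM at PN98 and rose by 2.42 (adjusted p = 0.0251). *Ctsb*, the lysosomal protease cathepsin B, which adipocytes make as well, rose by 0.81 (adjusted p = 0.0324). None of the 3 overlapped between the ages. The median of the list was 0.58, and the adipocyte markers, of which *Cidec* and *Adipoq* rose by 2.16 and 1.45 (adjusted p = 0.00212 and 0.0111), summed to 12384 to 23671 FPKM at PN21 and 33584 to 43934 FPKM at PN98. The part of adipocytes in the levels of *Ctsb* was not tested.

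For the lists below the background is the share of all genes called. It was 17.9% lower and 4.25% higher without m35. Without any one of the other mice it was 0.681% to 1.62% lower and 0.619% to 1.95% higher. With all mice it was 2.94% lower and 2.36% higher. Of 18 genes of perivascular and tissue macrophages 17 were tested, 11 of them with lower estimates, and none was called (without m35, *Lyve1* and *Cd5l* were called lower). The nearest with all mice was *Lyve1*, named here after its values were seen, which lymphatic vessels express too. It was 25.5, 20.3, 28.9 and 38.5 FPKM at PN21 and 13.4, 16.1, 11.4 and 6.31 FPKM at PN98, without overlap, with a log2FC of −1.23 ± 0.30 (SE, adjusted p = 0.0550). Of 26 genes of leukocyte signalling that could be tested, 24 had lower estimates and none was called with all mice, whereas 16 were called lower without m35. Of the 11 myeloid regulators analysed here 10 were tested, of the dendritic cell markers 6, of the mast cell markers 5 and of the eosinophil markers 1, and none of these was called. Without m35 there were 3 regulators called lower (*Id2*, *Ikzf1* and *Irf5*), 3 dendritic cell markers (*Ccr7*, *Itgae* and *Siglech*) and 2 mast cell markers (*Cma1* and *Cpa3*), and without m125 the dendritic cell marker *Cd209a* was called higher. Of the 6 endothelial markers tested none was called with all mice and *Emcn* was called lower without m35. Of the 6 epithelial markers *Epcam* fell by 1.16, and of the 6 progenitor markers *Dlk1* fell by 2.91 (adjusted p = 0.0421 and 0.00550). *Dlk1* was called with each mouse left out, and *Epcam* without m35 and in no fit that left out another mouse. Without m138 the epithelial markers called lower were *Krt18* and *Krt19*. All 14 lymphocyte markers had lower estimates with a median of −2.19 and none was called, against 13 without m35. Of the 10 muscle markers tested all had higher estimates, and *Tcap*, *Actn3* and *Atp2a1* rose by 3.35, 3.62 and 4.198 (adjusted p = 0.0290, 0.0334 and 0.0404). With one mouse left out 0 to 6 muscle markers were called higher, 6 of them without m35 or m138, 2 without m125 and 0 without any of the others.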

How the data were processed

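ING WAT of 4 PN21 and 4 PN98 C57BL/6j mice was analysed, grouped by the ages in the labels. Per the labels and the methods of the study, poly(A)+ RNA was made into stranded libraries and sequenced in pairs; CASAVA 1.8.2 made the reads, STAR 2.3.0 mapped them to mm10 (GRCm38), and Cufflinks 2.1.1 gave FPKM per transcript. The authors deposited these FPKM values with the decimal mark lost in many (unit recorded as other), beside row statistics and a score that combines them. Here the marks were restored from those statistics, which rest on 10 columns, 8 of them in the table: 40426 of 91969 transcripts had a lost mark, 40368 had 1 possible reading, and 38 transcripts, none of a member, were left out. In a second deposited table with intact decimals, 5009 of the single readings could be compared and all 5009 were equal in all 8 mice. Columns of the authors' comparisons (fold changes and p-values) were not used.

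FPKM were summed per gene (GENCODE vM21 by transcript ID). Genes with a mean of at least 1 FPKM were tested as log2(FPKM + 1) by limma 3.58.1 (lmFit, eBayes) in R 4.3.3, with Benjamini-Hochberg adjustment over 16101 genes; a call is an adjusted p under 0.05. Transcripts above 0 FPKM in all 8 mice and above a mean of 2 FPKM at either age were tested as log2(FPKM). The fit was tested on simulated data. The depth of the libraries is unknown, since FPKM hold no counts. The limma p-values set the difference between the ages against the spread between single mice, as moderated by eBayes. The members, the lists and the tests were chosen with earlier results of these data known. Values per mouse are given for members with an unadjusted p under 0.05 and for the resident, inflammatory, C1q, lysozyme and other defining members. Other genes are named where they were called in a fit, and some that were not called are named as checks, examples or contrasts. Pseudocount, filter, scaling, weights and single mice were varied.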

Additional observations from a re-analysis of the deposited data

Results flagged for a closer look

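In 82 groups of 4 mice (41 members at 2 ages), the gap between the highest or lowest mouse and its nearest neighbour, as a share of the range of log2(FPKM + 1), was above the 95% critical value of Dixon's test in 4 groups, and chance flags about 1 group in 20. *Adgre1* was 6.59 FPKM in PN21 mouse m49, below the other PN21 mice at 8.40 to 8.69 FPKM. *Mpeg1* was 34.98 FPKM in PN21 mouse m138, above the others at 16.2 to 18.1 FPKM. *Mertk* was 7.67 FPKM in PN98 mouse m35, above the others at 5.62 to 5.91 FPKM. *S100a9* was 6.15 FPKM in PN98 mouse m35, above the others at 1.82 to 2.23 FPKM and below the lowest PN21 mouse at 46.5 FPKM.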

How the results depend on the processing

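With 4 mice per age and no counts, small differences of low genes could not be resolved. Of the member genes 2 were called lower, and 1 with a pseudocount of 0.1, without the filter, with scaling to nuclear genes or with the lowest-p transcript of each gene, 4 with scaling by the median of ratios or to *Adgre1*, *Csf1r* and *Cd68*, 10 with array weights, and 1 to 10 with each mouse left out. *S100a9* was called in each of these fits, and no member gene was called higher in any of them. The resident minus inflammatory difference was 0.26 with a pseudocount of 0.1. Over all genes 380 were called higher, against 761 with the median of ratios, 100 with scaling to *Adgre1*, *Csf1r* and *Cd68*, 1152 with array weights, 152 with the lowest-p transcript and 100 to 679 with each mouse left out. The 473 called lower became 270 with a mean of at least 5 FPKM, 269 with scaling to nuclear genes, 198 with scaling to those 3 genes, 3495 with array weights, 133 with the lowest-p transcript and 110 to 2860 with each mouse left out. Without m35, 2860 were called lower and 679 higher. Of transcripts 166 were called higher, against 311 with the median of ratios and 12 to 356 with a mouse left out, and 148 lower, against 32 to 1421. For transcripts of members, 1 was called higher with the median of ratios (*Clec10a*), 0 to 1 with a mouse left out (*Fcgr3* without m138, near 0 FPKM in some mice), and 1 to 3 lower. The causes of these changes were not tested.

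None of the differences that changed sign was called. With the median of ratios these were *Mrc1* 0.015, *Csf1* 0.063, *Csf1r* 0.061, *Adgre1* 0.040, *C1qb* 0.15, *Fcgr1* 0.042 and *F13a1* 0.042. With scaling to nuclear genes they were *Mrc1* 0.051, *Folr2* 0.0049, *Csf1* 0.10, *Csf1r* 0.10, *Adgre1* 0.077, *C1qb* 0.18, *C1qc* 0.021, *Fcgr1* 0.071 and *F13a1* 0.078. With scaling to *Adgre1*, *Csf1r* and *Cd68* they were *Mrc1* 0.032, *Csf1* 0.083, *Csf1r* 0.076, *Adgre1* 0.044, *C1qb* 0.16, *C1qc* 0.00092, *Fcgr1* 0.047 and *F13a1* 0.060. With a pseudocount of 0.1 they were *Itgax* −0.037 and *Ccr2* −0.032, with array weights *Itgax* −0.22, *Ccr2* −0.16 and *Fcgr1* 0.065, and with the lowest-p transcript *Itgax* −0.054, *Ccr2* −0.018 and *Itgam* −0.22. With each mouse left out the ranges that crossed 0 were *Mrc1* −0.36 to 0.083, *Folr2* −0.46 to 0.045, *Itgax* −0.35 to 0.29, *Ccr2* −0.29 to 0.40, *Csf1* −0.34 to 0.032, *Csf1r* −0.40 to 0.16, *Adgre1* −0.32 to 0.19, *Cd68* −0.68 to 0.080, *Mpeg1* −0.66 to 0.12, *C1qb* −0.28 to 0.14, *Fcgr1* −0.24 to 0.12, *Itgam* −0.18 to 0.41, *Lyz1* −0.34 to 0.46 and *F13a1* −0.35 to 0.032. No paired analysis was possible because the mice of the ages are different animals and the labels give no shared number.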
